A study of Homo sapiens with 8 samples.

Results

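The genes described here are 9 targets of the transcription factor p53, namely MDM2, MDM4, CDKN1A, SESN1, TP53I3, RRM2B, ZMAT3, PHLDA3 and FAS. They were taken by symbol from a table of 47591 genes, each matched a single row, and all 9 had a mean of at least 10 normalised reads in every line. RNA-seq of polyadenylated RNA was carried out on SH-SY5Y, a human neuroblastoma line, in 3 forms. WT (2 libraries) is the unedited parent. SCR (3 libraries) went through CRISPR/Cas9 with a control guide, and G2 (3 libraries) with a guide to PRPF40B, a splicing factor. G2 and SCR were selected with puromycin and kept in it, and G2 was grown from an individual colony, whereas the growth conditions given for WT name no puromycin. Guide and Cas9, puromycin and the choice of a colony therefore cannot be told apart in SCR/WT and G2/WT, and in G2/SCR the edit of PRPF40B cannot be told apart from the history of 1 clone. The libraries are biological replicates of these lines, so the p-values measure the spread between cultures of a line, not between independently edited clones.

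p53 is a stress-activated transcription factor that binds DNA as a tetramer. It turns on genes that hold the cell cycle, repair DNA, adjust metabolism and trigger apoptosis. It also turns on MDM2, the ubiquitin ligase that marks p53 for degradation, so that the pathway is held by a feedback loop. MDM4 binds p53 together with MDM2 and blocks its activity. In neuroblastoma cells p53 is usually intact, and the balance with MDM2 is known to set how strongly its targets are expressed.

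The DNA element that p53 recognises is made of 2 copies of a 10-base unit. RefSeq start sites were given for 7 of the 9 genes (all but PHLDA3 and RRM2B), and 2500 bases of hg38 on each side of these starts were searched for the 20-base p53 response element without spacer, which reads alike on both strands. With at most 2 mismatches it was found near 6 of the 7 genes, CDKN1A, FAS, MDM2, MDM4, TP53I3 and ZMAT3, against 14% of the 27305 genes with a start. SESN1 had no such match. Its best one, with 3 mismatches, lay inside the 300 bases around a start. With at most 3 mismatches, 6.39% of all genes had a match in that narrow window, and 70.7% had one in the full window of 2500 bases on each side. The matches below are printed because they let the elements of genes that moved in different ways be compared. Capitals mark the 20 bases of the element, and each is written 5′ to 3′ on the strand of its gene.
CDKN1A, upstream: gtcagGAACATGTCCCAACATGTTGagctc
MDM2, outer: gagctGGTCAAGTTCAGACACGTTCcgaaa
MDM2, inner: aaaggAGTTAAGTCCTGACTTGTCTccagc
FAS: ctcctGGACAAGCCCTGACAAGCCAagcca
SESN1: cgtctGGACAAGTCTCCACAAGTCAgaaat
ZMAT3: tcataAAACAAGTCCAGACATGCCTaggca

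The CDKN1A stretch is chr6:36676444-36676473 on the plus strand, its element centred 2256 bases upstream of the RefSeq start, in an exon of a longer annotated CDKN1A transcript. The MDM2 stretches are chr12:68808918-68808947 and chr12:68808956-68808985 on the plus strand, with elements 84 and 46 bases upstream of a start inside the gene, in an intron of the longer transcripts, and with 2 and 3 mismatches. The FAS stretch, chr10:88991304-88991333 on the plus strand, lies 112 bases upstream of a start, in exons annotated to both FAS and ACTA2. The SESN1 stretch (chr6:109009013-109009042) and the ZMAT3 stretch (chr3:179070183-179070212), both on the minus strand, are intronic in longer transcripts, 40 and 856 bases upstream of a start. ZMAT3 was the only one of the 7 genes with an element free of mismatches, which 0.117% of all genes had.

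TP53I3 is known for a different kind of p53-responsive sequence, a run of 5-base repeats. A run of at least 5 copies of TGCCC or TGTCC, on either strand, was found near 7 of the 27305 genes (0.0256%). TP53I3 held 15 copies at chr2:24084343-24084417, on its own minus strand, in an exon and UTR, centred 454 bases downstream of the RefSeq start. The first 6 copies (chr2:24084388-24084417) are printed with the variable base of each copy in capitals.
TP53I3: tgCcctgTcctgTcctgCcctgCcctgTcc
These matches are descriptions of sequence, not measurements of binding.

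Values are normalised read counts as deposited, not scaled to gene length, so they are compared between lines and not between genes. Fold changes are on the log2(value + 1) scale from limma, fitted over 18947 genes with a mean of at least 10. A gene was called changed at a fold of at least 1.5 with an unadjusted p of at most 0.05, the criterion of the study's methods, and the Benjamini-Hochberg adjusted p is given beside it. PRPF40B, the targeted gene, had 866 ± 44.5 normalised reads in G2 (SD, n = 3), 1676 ± 8.79 in SCR (n = 3) and 1820 ± 215 in WT (n = 2), and fell in G2/SCR (log2 fold change -0.95, adjusted p = 7.4e-07). Recovered totals ran from 59804395 to 81080747 counts per library. Rows of ribosomal RNA took 4.75% to 4.96% of the WT values and 0.384% to 0.587% of the others. When all libraries were instead brought to the same total, the median log2 fold change of all genes moved from 0.01 to 0.29 in SCR/WT, from 0.01 to 0.19 in G2/WT and from -0.01 to -0.10 in G2/SCR. The share of calls that were higher then moved from 65.6% to 90.7%, from 59.3% to 75.8% and from 56.2% to 47.4%. Under that scaling 20.9% of all tested genes were called higher and 2.16% lower in SCR/WT, 23.8% and 7.62% in G2/WT, and 13.1% and 14.5% in G2/SCR.

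All calls among the 9 genes against the parent were upward, and most of those between the guide-treated lines were downward in G2. In SCR/WT, 5 were called higher (CDKN1A, PHLDA3, ZMAT3, FAS and SESN1) and 0 lower, where 10.7% of all tested genes were higher and 5.63% lower. In G2/WT, 5 were higher (FAS, CDKN1A, PHLDA3, TP53I3 and RRM2B) and 0 lower, against 17.7% and 12.2% of all genes. In G2/SCR, 4 were lower (SESN1, ZMAT3, CDKN1A and PHLDA3) and 2 higher (TP53I3 and FAS), against 11.8% lower and 15.1% higher. The median log2 fold change of the 9 was 1.14 in SCR/WT, 0.91 in G2/WT and -0.53 in G2/SCR. With equal totals 7 were higher and 0 lower in SCR/WT, 6 and 0 in G2/WT, and 1 and 5 in G2/SCR. These comparisons share libraries and are not independent of each other. The plot of members by library shows that SCR stood highest for 5 of the genes and G2 for 3.

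**Figure D1:**
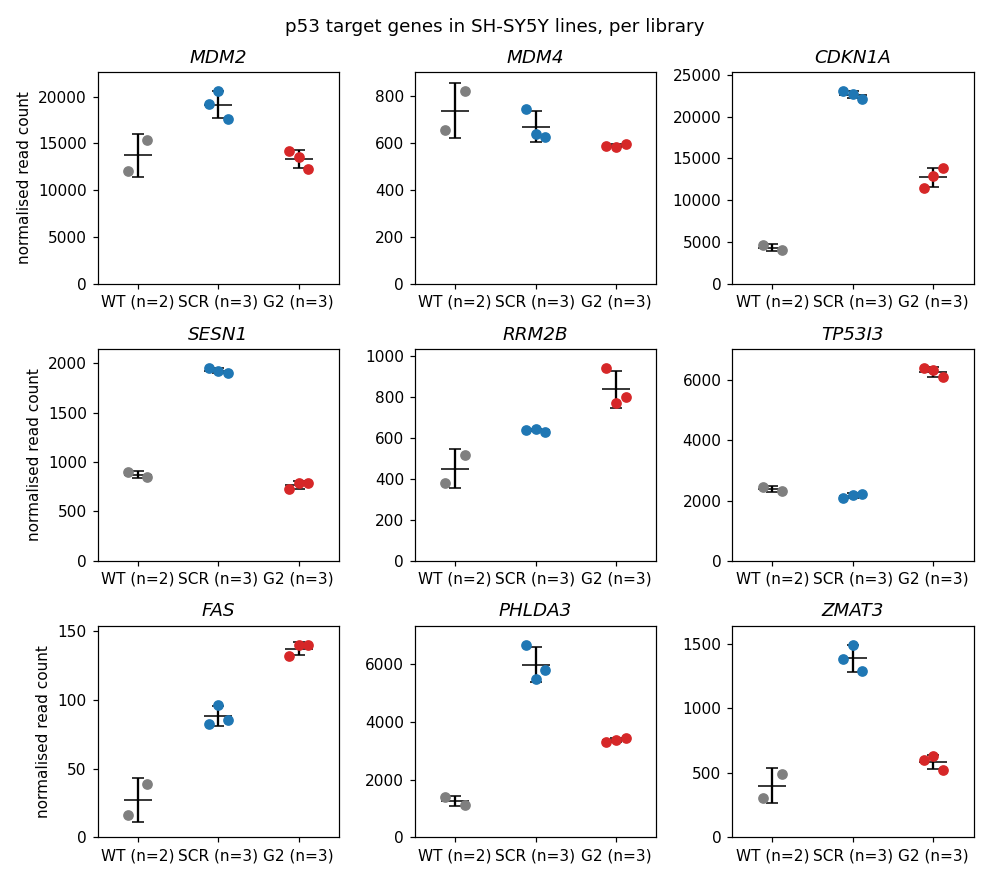
Normalised read counts (linear axis from 0) of the 9 p53 target genes in each library of WT (n = 2), SCR (n = 3) and G2 (n = 3), with points for libraries, horizontal bars for means and error bars for SD. SCR lies above both other lines for MDM2, CDKN1A, SESN1, PHLDA3 and ZMAT3, while TP53I3 is near 6286 in G2 and between 2085 and 2460 in every other library.

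Of the 9 genes, 5 followed 1 of 2 patterns. CDKN1A, SESN1, PHLDA3 and ZMAT3 were called lower in G2/SCR and higher in SCR/WT, so that the control guide line stood above both others. This pattern held for 584 of all genes tested (3.08%), and it was defined after the values had been seen. TP53I3 was called higher in G2 against both SCR and WT and was not called in SCR/WT, which is termed specific to G2 here. This held for 8.13% of all genes in the upward and 5.63% in the downward direction, so 1 of 9 is a share near the background.

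**Figure D2:**
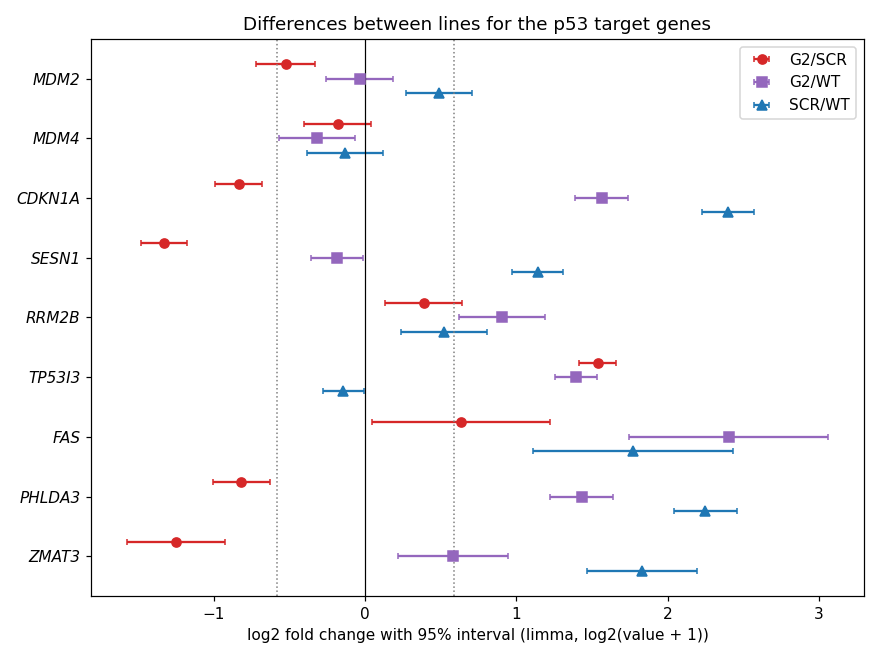
Log2 fold changes with 95% intervals (limma, log2(value + 1) scale) of the 9 genes in G2/SCR (circles), G2/WT (squares) and SCR/WT (triangles), with dotted lines at a fold of 1.5 in each direction. CDKN1A reaches 2.40 in SCR/WT and -0.84 in G2/SCR, and TP53I3 lies at 1.54 and 1.39 in the comparisons with G2.

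For the feedback regulators no difference was called. MDM2 (chr12:68801459-68850686), the ligase of p53, had 14147, 13509 and 12253 normalised reads in the G2 libraries, 19260, 20586 and 17618 in SCR, and 12074 and 15362 in WT. Every SCR library lay above every library of the other lines, while G2 and WT overlapped. On the log2 scale the change was -0.53 in G2/SCR (SE 0.09, adjusted p = 0.000411) and 0.49 in SCR/WT (SE 0.10, adjusted p = 0.00278), with ratios of means of 1.44 and 1.40, under the fold of 1.5 that a call needs. With all libraries at the same total both passed it, at -0.62 and 0.77, and SCR/WT was 0.66, past it, without WT replicate 2 and 0.315 without WT replicate 1. G2 and WT differed by -0.04 (95% interval -0.26 to 0.18), a difference whose sign depended on the scaling and on the libraries used.

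MDM4 (chr1:204516378-204716424), which restrains p53 alongside MDM2, had 586, 583 and 595 normalised reads in G2, 744, 639 and 625 in SCR, and 654 and 820 in WT. The G2 libraries were below all others by a small margin, and SCR and WT overlapped. None of its differences was called, with log2 fold changes of -0.18 in G2/SCR (interval -0.41 to 0.04), -0.32 in G2/WT (adjusted p = 0.0352) and -0.13 in SCR/WT (interval -0.38 to 0.12). The table entry of MDM4 spans LRRN2, which had means of 75.2, 55.3 and 54.2 in G2, SCR and WT.

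CDKN1A (chr6:36676463-36687332) encodes p21, the inhibitor of cyclin-dependent kinases through which p53 halts the cell cycle. Its G2 libraries had 11489, 12873 and 13793 normalised reads, SCR 23053, 22684 and 22161, and WT 4580 and 4019. The lines did not overlap, in the order SCR, G2, WT. CDKN1A was 5.26-fold higher in SCR than in WT (log2 fold change 2.40, SE 0.08, adjusted p = 3.51e-09). It was 2.96-fold higher in G2 than in WT (1.56, SE 0.08, adjusted p = 1.32e-08) and 1.78-fold lower in G2 than in SCR (-0.84, SE 0.07, adjusted p = 1.2e-06).

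Of the genes for stress metabolism and nucleotide supply, SESN1 (chr6:108984309-109094846) encodes sestrin 1, which restrains mTORC1 signalling. It had 722, 791 and 789 normalised reads in G2, 1952, 1923 and 1898 in SCR, and 895 and 849 in WT. SCR stood apart from the 5 other libraries, being 2.51-fold above G2 (log2 fold change -1.33 in G2/SCR, SE 0.07, adjusted p = 1.48e-08) and 2.21-fold above WT (1.14, SE 0.08, adjusted p = 1.12e-06). G2 and WT differed by -0.19 (interval -0.36 to -0.02, adjusted p = 0.0628), which became 0.00 with all libraries at the same total. SESN1 and CDKN1A thus had their highest level in the same line but differed in G2, where only CDKN1A was called above WT.

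RRM2B (chr8:102204501-102239118), a subunit of ribonucleotide reductase that supplies nucleotides for repair, had 942, 771 and 798 normalised reads in G2, 640, 641 and 630 in SCR, and 381 and 517 in WT. The order was G2, SCR, WT without overlap. Only G2/WT was called (log2 fold change 0.91, SE 0.13, adjusted p = 0.000101), while G2/SCR was 0.39 (adjusted p = 0.0156) and SCR/WT 0.52 (adjusted p = 0.0088), both under the fold threshold. SCR/WT passed it at 0.80 with equal totals and at 0.74 without WT replicate 2, and was 0.300 without WT replicate 1. The 20 tested genes nearest to RRM2B on chromosome 8 were also higher in G2, by a median of 0.54 on the log2 scale in G2/SCR (8 of 20 called higher, 1 lower) and 0.57 in G2/WT (10 higher, 1 lower), and a median of 0.04 in SCR/WT. The part of this region in the RRM2B values was not tested.

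TP53I3 (chr2:24077182-24085052) encodes a quinone oxidoreductase linked to reactive oxygen species and is the gene with the repeat run printed above. It had 6414, 6345 and 6098 normalised reads in G2, 2085, 2180 and 2229 in SCR, and 2460 and 2323 in WT. Every G2 library held at least 6098, far above the highest control value of 2460, and SCR lay just below WT. TP53I3 was 2.90-fold higher in G2 than in SCR (log2 fold change 1.54, SE 0.06, adjusted p = 7.18e-10) and 2.63-fold higher than in WT (1.39, SE 0.06, adjusted p = 4.69e-09). SCR/WT was -0.14 (interval -0.28 to -0.01, adjusted p = 0.0992) and turned to 0.13 with equal totals. FAM228B, whose table entry spans TP53I3, was at 193 in G2, 172 in SCR and 141 in WT. The 20 nearest tested genes had a median of 0.24 in G2/SCR.

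Of the genes of cell death, FAS (chr10:88969796-89017059) encodes the death receptor of the TNF receptor family. It was the member with the fewest reads, with 132, 140 and 140 in G2, 82.7, 96.7 and 85.4 in SCR, and 16.1 and 38.7 in WT. The lines did not overlap, in the order G2, SCR, WT. FAS was higher than in WT in G2 (log2 fold change 2.40, SE 0.30, adjusted p = 3.38e-05) and in SCR (1.77, SE 0.30, adjusted p = 0.000831). Their size rests on which WT library is used, being 1.80 and 1.17 without WT replicate 1 and 3.01 and 2.38 without WT replicate 2, and both were called either way. In G2/SCR it was called higher by the unadjusted rule (0.63, SE 0.27, adjusted p = 0.0711), a call that 11 of 21 alternative settings did not keep. The FAS entry overlaps that of ACTA2, which had means of 1255, 655 and 157 in G2, SCR and WT and log2 fold changes of 0.93 in G2/SCR, 2.99 in G2/WT and 2.05 in SCR/WT. It also overlaps STAMBPL1, at 942, 539 and 608. The strand setting of the counting is not given in the sources used here, and the share of reads from these neighbours in the FAS values was not tested.

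PHLDA3 (chr1:201464278-201469188) encodes a pleckstrin homology protein that holds back AKT, a survival kinase. It had 3317, 3396 and 3454 normalised reads in G2, 6681, 5488 and 5819 in SCR, and 1386 and 1137 in WT. As for CDKN1A, the lines were ordered SCR, G2, WT without overlap. PHLDA3 was 4.75-fold higher in SCR than in WT (log2 fold change 2.25, SE 0.10, adjusted p = 2.71e-08), 2.69-fold higher in G2 than in WT (1.43, SE 0.10, adjusted p = 1.55e-07) and 1.77-fold lower in G2 than in SCR (-0.82, SE 0.09, adjusted p = 7.63e-06).

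ZMAT3 (chr3:179017223-179072513), a zinc finger protein that binds RNA and regulates splicing, had 596, 627 and 523 normalised reads in G2, 1382, 1491 and 1285 in SCR, and 304 and 494 in WT. SCR lay well above the others, and G2 just above WT. ZMAT3 was 3.47-fold higher in SCR than in WT (log2 fold change 1.83, SE 0.17, adjusted p = 9.96e-06) and 2.38-fold lower in G2 than in SCR (-1.25, SE 0.15, adjusted p = 2.28e-05). G2/WT was 0.58 (SE 0.17, adjusted p = 0.0115), narrowly under the fold threshold, and 6 of 20 alternative settings called it, with 0.93 without WT replicate 2 and 0.23 without WT replicate 1. The 20 genes nearest to ZMAT3 had a median of 0.42 in G2/SCR, opposite in sign to the gene itself.

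**Figure D3:**
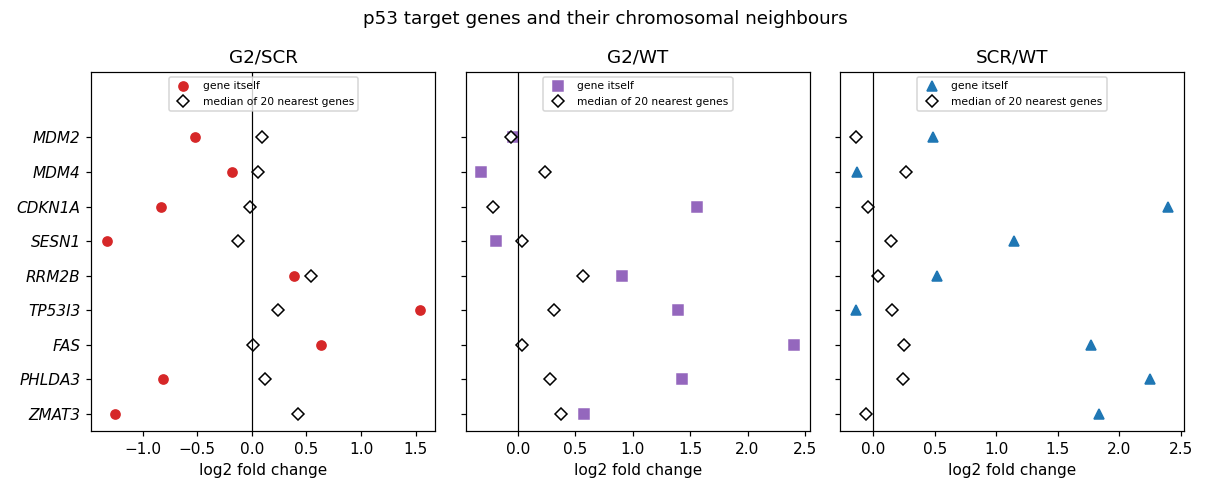
Log2 fold change of each of the 9 genes (filled symbols) and the median of its 20 nearest tested genes on the chromosome (open diamonds) in the 3 comparisons. Symbol and diamond lie close in G2/SCR for RRM2B (0.39 and 0.54) and apart for TP53I3 (1.54 and 0.24), ZMAT3 (-1.25 and 0.42) and SESN1 (-1.33 and -0.13).

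The genes whose log2 levels ran most closely with each member over the 8 libraries were named from 13064 genes with a mean of at least 100 (13065 for FAS, not itself above that mean). The 8 libraries come from 3 lines, so these correlations mostly describe the order of 3 line means. CDKN1A was closest to DUSP4 (Pearson r = 0.9987) and to PHLDA3 (0.9951), and PHLDA3 to DUSP4 (0.9973) and CDKN1A. TP53I3 was closest to TMCO3 (0.9991) and PTX3 (0.9989), and 1068 genes exceeded 0.95 with it, compared with 113 for CDKN1A and 48 for MDM2. MDM2 was closest to ATAD1 (0.9889) and GTF2E1 (0.9842). RRM2B was closest to ALDH5A1 (0.9900), FAS to CCDC117 (0.9932) and ZMAT3 to GAS6-AS1 (0.9906). SESN1 was closest to a gene without a symbol (0.9946) and to EPAS1 (0.9945), and MDM4 had the loosest match, to MAGI1 (0.9534).

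A wider list of 53 other direct p53 targets was compiled from textbook knowledge, and 52 were tested (PERP was listed at 0). In SCR/WT 22 were higher and 0 lower, at a median of 0.45 on the log2 scale against 0.01 for all genes, and in G2/WT 19 were higher and 1 lower (median 0.44), where 10.7% and 5.63% of all genes were higher and lower in SCR/WT, and 17.7% and 12.2% in G2/WT. With equal totals these counts were 34 and 0 in SCR/WT, and 26 and 0 in G2/WT, where 20.9% and 23.8% of all genes were higher. In G2/SCR, 12 were lower and 8 higher (median -0.27 against -0.01), where 11.8% of all genes were lower and 15.1% higher, and with equal totals 16 were lower and 8 higher. In SCR, 8 of the 52 were called above both other lines, against 3.08% of all genes, namely BBC3, TNFRSF10A, TNFRSF10B, TIGAR, EDA2R, SPATA18, RPS27L and CMBL.

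EDA2R, a receptor of the TNF receptor family, had 435, 412 and 437 normalised reads in G2, 1660, 1856 and 1606 in SCR, and 186 and 196 in WT. Its log2 fold change of 3.15 in SCR/WT (SE 0.10, adjusted p = 2.74e-09) was followed by -1.99 in G2/SCR (SE 0.09, adjusted p = 2.91e-09). BBC3, which encodes the apoptosis inducer PUMA and was picked after its values were seen, had means of 1098 in G2, 3528 in SCR and 1236 in WT, with -1.69 in G2/SCR and 1.52 in SCR/WT. DRAM1, a lysosomal protein of autophagy, had means of 365, 312 and 28.8, and was higher than WT in both guide-treated lines (3.40 in SCR/WT, adjusted p = 7.9e-08, and 3.62 in G2/WT) with 0.22 between them (interval -0.10 to 0.55). EDA2R and BBC3 were called above both other lines in SCR, as were 4 of the 9. DRAM1 was called above WT in both treated lines, as were CDKN1A, PHLDA3 and FAS of the 9. These arrangements overlap, since EDA2R was also called higher in G2/WT.

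Among the 52, DGKA and GLS2 were specifically higher and AEN specifically lower in G2, smaller shares of the list than the 8.13% and 5.63% of all genes. With equal totals only DGKA of these 3 met this rule, since AEN was then -0.42 in G2/WT and not called, and GLS2 was 0.80 in SCR/WT and called. DGKA, a diacylglycerol kinase, rose 2.06-fold from 639 ± 26.7 in SCR to 1319 ± 17.7 in G2 (log2 fold change 1.05, SE 0.07, adjusted p = 2.18e-07), with 610 ± 32.6 in WT. GLS2, the mitochondrial glutaminase, had 78.1 ± 11.9 in G2, 45.3 ± 1.5 in SCR and 32.1 ± 12.1 in WT (0.76 in G2/SCR, adjusted p = 0.0278). AEN, an apoptosis-linked nuclease, fell to 2784 ± 51 in G2 from 5567 ± 181 in SCR (log2 fold change -0.999, SE 0.06, adjusted p = 3.23e-08) and 4247 ± 271 in WT (-0.61). PLK2, a polo-like kinase picked after its values were seen, had 10997, 10648 and 10650 in G2, 2213, 2311 and 2406 in SCR, and 1067 and 1107 in WT. It rose in G2 against each control, in the opposite direction to CDKN1A in G2/SCR.

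**Figure D4:**
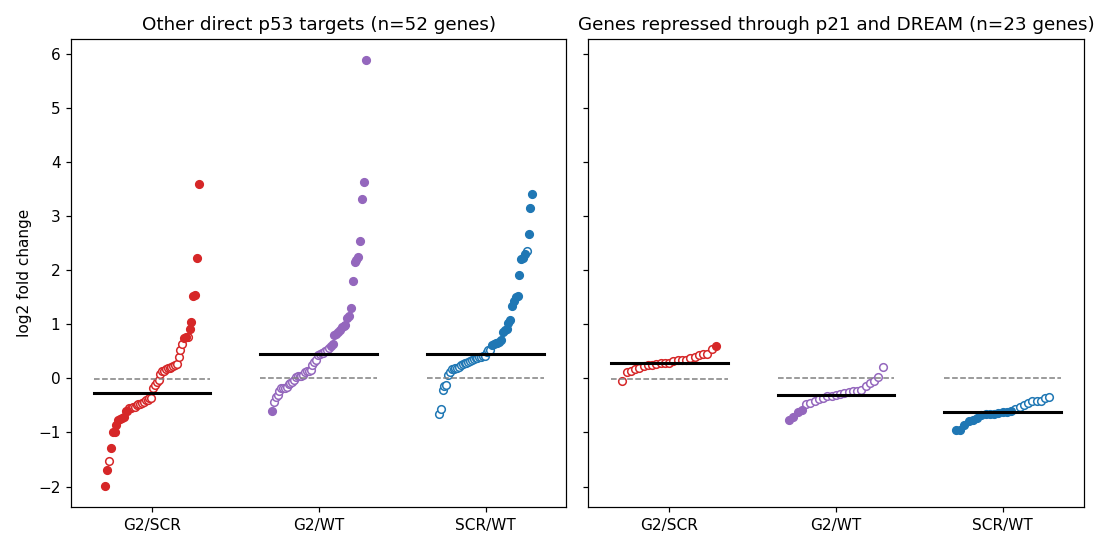
Log2 fold changes of 52 other direct p53 targets (left) and 23 genes repressed through p21 and the DREAM complex (right) in 3 comparisons, each point 1 gene in rank order, filled where called, with solid lines for the list median and dashed lines for the median of all genes. In SCR/WT the direct targets have a median of 0.45 with 22 called higher, and the repressed genes a median of -0.63 with 14 called lower.

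When p21 rises, the DREAM complex is known to repress genes of the cell cycle. All 23 listed genes of this kind were tested. In SCR/WT 14 were lower and 0 higher, at a median of -0.63 on the log2 scale, and in G2/WT 4 were lower (median -0.30), where 5.63% and 12.2% of all genes were lower. In G2/SCR 1 was higher (KIF23, 0.60) and 0 lower, with a median of 0.29, where 15.1% of all genes were higher and 11.8% lower. With equal totals the lower calls went from 14 to 3 in SCR/WT (median -0.35, against 0.29 for all genes) and from 4 to 0 in G2/WT. Of all genes, 2.16% and 7.62% were then lower. The KIF23 call was lost at 0.51. Without either WT library in turn, 13 and 16 were lower in SCR/WT. MYBL2, a transcription factor of the cell cycle, had 10822, 10677 and 10806 normalised reads in G2, 9395, 9143 and 9701 in SCR, and 18888 and 17802 in WT (-0.96 in SCR/WT, SE 0.05, adjusted p = 2.68e-07). By the medians of the list, its genes were lowest in SCR, also with equal totals. The part of p21 in these values was not tested.

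Of 21 regulators and cofactors of p53, 20 were tested (TP63 was near 0). Most were not called, with 0 higher and 3 lower in G2/SCR, 1 higher and 3 lower in G2/WT, and 1 higher and 2 lower in SCR/WT. In the same order, 11.8%, 12.2% and 5.63% of all genes were lower, and 15.1%, 17.7% and 10.7% were higher. With equal totals the counts were 0 and 4, 1 and 1, and 4 and 1. Of all genes, 13.1% and 14.5%, 23.8% and 7.62%, and 20.9% and 2.16% were then higher and lower. CDKN2A, the locus of p16 and of ARF, the inhibitor of MDM2, had 870, 1102 and 984 normalised reads in G2, 3889, 3445 and 3022 in SCR, and 1080 and 663 in WT. It was 3.96-fold higher in SCR than in WT (log2 fold change 2.02, SE 0.18, adjusted p = 6.99e-06) and lower in G2 than in SCR (log2 fold change -1.81, SE 0.16, adjusted p = 1.4e-06), with 0.21 between G2 and WT (interval -0.17 to 0.60). The counts do not separate p16 from ARF transcripts. CHEK1, a kinase of the DNA damage checkpoint, had means of 2708, 2296 and 4398 and fell against WT in both lines (-0.94 in SCR/WT and -0.70 in G2/WT), the latter not called with equal totals, at -0.51. RPL5 and RPL11, ribosomal proteins that bind MDM2, were specifically lower in G2, with log2 fold changes of -0.60 each in G2/SCR (adjusted p = 6.57e-06 and 3.48e-06). These were 2 of the 20 tested, where 5.63% of all genes were specifically lower in G2. With equal totals RPL5 was -0.57 in G2/WT and not called, while RPL11 was -0.73 and called. RPL11 had means of 80531 in G2, 122436 in SCR and 152040 in WT. Both have processed pseudogenes that could share their reads.

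Markers of cell identity moved with the lines as well. The summed level of 10 adrenergic neuroblastoma markers ran from 262942 to 265895 in G2, from 361049 to 369455 in SCR and from 328878 to 342391 in WT. Of the 10, 7 were called lower in G2 than in SCR and 7 lower than in WT, with 6 genes shared. Among all genes, 11.8% and 12.2% were lower in these comparisons. In SCR/WT 1 of the 10 was lower and 0 higher, where 5.63% of all genes were lower and 10.7% higher. With equal totals G2/WT had 6 lower and 1 higher, where 7.62% of all genes were lower and 23.8% higher. SCR/WT then had 0 lower and 1 higher, where 2.16% of all genes were lower and 20.9% higher. The sum of 10 mesenchymal markers ran from 247973 to 252730 in G2, from 112595 to 119872 in SCR and from 81333 to 93457 in WT. Of the 9 tested, 8 were higher in G2 against both controls, where 15.1% and 17.7% of all genes were higher in G2/SCR and G2/WT. Part of this shift was also seen in SCR/WT, where 3 of the 9 were higher and 0 lower, against 10.7% and 5.63% of all genes. With equal totals 5 were higher and 0 lower in SCR/WT, against 20.9% and 2.16% of all genes. PRRX1 was at 0 in every SCR and WT library and between 20.7 and 48.2 in G2. It passed the filter on the mean only through G2, so the direction of its call was fixed in advance. Without G2 replicate 2 or without G2 replicate 3, 8 markers were tested and 7 were higher in G2 against each control. FN1 was listed at 0 in 7 of the 8 libraries. The 6 glial markers summed to between 170 and 267 in G2, below SCR (387 to 599) and WT (428 to 464). SOX10 was at 0 throughout. This sum does not stand for each marker. Only 3 were tested, and against each control G2 had 1 called higher and 1 lower. Their median log2 fold change was 0.64 against SCR and 1.26 against WT. The 1 marker with a mean of at least 100 was lower, at -1.58 against SCR and -1.41 against WT. Without G2 replicate 1 or 2, only 2 markers passed the filter on the mean and 0 were called higher. The higher call thus came from a marker that passed the filter through G2, so its direction was fixed in advance. In G2/WT it was also lost with the adjusted p, with the replicate block and without G2 replicate 3. In G2/SCR it was also lost with the block by library name. The part of these identity changes in the values of TP53I3, PLK2 and the other targets was not tested. In bulk RNA, fewer cells with a transcript and less of it per cell cannot be told apart.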

How the data were processed

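RNA-seq of polyadenylated RNA was done with Illumina stranded mRNA libraries and paired 75 bp reads. The authors aligned reads to hg38 (STAR), assigned them to genes with featureCounts (Subread 1.5.0) on the FAST DB annotation and normalised with DESeq2. The deposited values are this signal, a count divided by a size factor. Values were whole multiples of 1 step per library, and dividing by it gave recovered counts (whole for 100% of values). The step of WT replicate 2 is too near 1 for a check, and 71.3% to 75.6% of small counts were multiples of 3, so recovered totals need not be fragments.

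Values were tested on the log2(value + 1) scale with limma 3.58.1 (trended variances, 1 mean per line, all 8 libraries), over 18947 genes with a mean of at least 10. The script was tested on simulated data. Alternatives included DESeq2 1.42.0 and edgeR 4.0.16 on recovered counts of G2 and SCR. Replicate numbers did not pair libraries, with correlations of same-numbered deviations from -0.03 to 0.04. The 9 genes and all lists were chosen with earlier results of these data known. The text names the 9 genes and, of each list, up to 4 genes specific to G2 and the 2 with the largest called change in SCR/WT, and says where others were picked later. Genes most like a member were the 2 with the highest correlation, out of those averaging at least 100. Promoter windows and starts are from RefSeq (GRCh38.p14), bases from hg38, and annotation from GENCODE. The values of the p53 gene itself and of some listed genes are not reported here.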

Additional observations from a re-analysis of the deposited data

How the results depend on the processing

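Under 20 alternatives in G2/WT and SCR/WT and 22 in G2/SCR, TP53I3 remained the only member counted as specific to G2, and CDKN1A, SESN1, PHLDA3 and ZMAT3 kept the sign of every called difference. With a mean of at least 100 as the filter, 3088, 3633 and 1723 genes were called in G2/SCR, G2/WT and SCR/WT in place of 5088, 5657 and 3097, since fewer genes were tested. At a fold of at least 2, the counts were 2951, 3176 and 1491, with 3 members called in G2/SCR in place of 6 and 2 above both lines in SCR in place of 4. DESeq2 called 4973 and edgeR 5093 genes in G2/SCR, with 6 members each.

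Uncalled differences near 0 changed sign. With equal totals MDM2 in G2/WT was 0.150, MDM4 in SCR/WT 0.142, SESN1 in G2/WT 0.000 and TP53I3 in SCR/WT 0.133. With each library left out in turn, MDM2 in G2/WT ran from -0.210 to 0.137 and MDM4 in SCR/WT from -0.297 to 0.028, the upper values without WT replicate 2. By construction, equal totals lower the WT values, which have the largest normalised totals. With the replicate number as a block, MDM2 in G2/WT was 0.022, and 0.099 with the block by library name. The block called ZMAT3 higher in G2/WT, at 0.644, and left 5059, 5644 and 3057 genes called. With only 2 WT libraries, the MDM4 difference in SCR/WT could not be told from the spread.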
